A study of Mus musculus with 6 samples.

Results

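The fibroblast growth factor (FGF) receptors, one of their ligands and the genes that their signal switches on were compared between 2 sorts of mouse olfactory epithelial cells, ICAM1-positive and ICAM1-negative. The genes were Fgfr1, Fgfr2, Fgfr3, Fgf2, Dusp6, Spry1, Spry2, Spry4, Etv4 and Etv5. They were found by gene symbol, which gave 22 probe sets for these 10 genes, of 45101 probe sets and 18193 named genes on the array. The tissue came from CD1 mice of 3 litters, aged 21, 22 and 24 days after birth for litters 1, 2 and 3. Dissociated cells were stained for ICAM1 (CD54), an adhesion molecule of the cell surface, and sorted, and each litter gave 1 array of ICAM1-positive and 1 array of ICAM1-negative cells. No treatment or transgene is given for either sort. The animals of a litter went into each sort together, and litter and age cannot be told apart.

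FGFs are secreted ligands that bind receptor tyrosine kinases together with heparan sulfate. The active receptor signals through adaptor proteins to RAS and the ERK kinases. ERK activity in turn induces Sprouty proteins and the phosphatase DUSP6, which dampen the same pathway, and the ETS transcription factors ETV4 and ETV5, which carry part of its transcriptional output. In the developing nose, FGF signalling is known for its part in forming the olfactory epithelium and its neurons.

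The sorts were checked by marker genes. ICAM1-positive arrays carried the markers of horizontal basal cells, the reserve stem cells of this epithelium, and also those of macrophages. The summed intensity of 8 horizontal basal cell markers was 89230 to 93770 on ICAM1-positive arrays, against 315.5 to 862.2 on ICAM1-negative arrays, and 8 of 8 rose. Krt5, a basal keratin gene, averaged 24300 in ICAM1-positive and 160.6 in ICAM1-negative cells, and Krt14, its partner keratin gene, 16770 in ICAM1-positive and 51.87 in ICAM1-negative cells. Of 10 macrophage markers 9 rose, with sums of 16990 to 22040 on ICAM1-positive and 972.5 to 1199 on ICAM1-negative arrays. The 8 mature olfactory neuron markers all fell, with sums of 5258 to 10600 on ICAM1-positive and 82450 to 94770 on ICAM1-negative arrays. The sorts are therefore mixtures of different makeup, and more cells of a type that carries a transcript cannot be told apart from more of that transcript per cell. What part macrophages and neurons had in the values below was not tested.

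Intensities are linear and in arbitrary units, so they were compared between sorts for 1 probe set at a time and not between genes. The median intensity of an array lay between 87.9 and 102.8. Differences are given on the log2 scale as ICAM1-positive minus ICAM1-negative, with the standard error of a limma fit that paired the arrays by litter, and p-values were adjusted by the Benjamini-Hochberg method over 38694 probe sets. A difference counts as a rise or a fall where the adjusted p was under 0.05. Where the dimmer sort lay below the median of its array on all 3 arrays, a fold is given as at least the value obtained with that sort raised to the median.

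All 3 receptor genes rose in ICAM1-positive cells. Fgfr2 encodes the receptor through which epithelia answer FGFs from the underlying stroma. On its brightest probe set (1433489_s_at) it measured 3757.5, 2897.5 and 3485.8 in ICAM1-positive cells of litters 1, 2 and 3, against 129.9, 132.3 and 148.8 in ICAM1-negative cells. Every ICAM1-positive array was at least 21.9-fold above the ICAM1-negative array of its own litter. The log2 difference was 4.62 ± 0.15 (adjusted p = 0.00406). It was the largest rise among Fgfr2, Fgfr3, Dusp6, Spry1 and Spry2, the genes that rose with both sorts above the array median on every array.

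Fgfr3 encodes a receptor of the same family. Probe set 1421841_at measured 2026.1, 1705.4 and 1593.4 in ICAM1-positive cells, against 125.6, 164.1 and 105.5 in ICAM1-negative cells. The groups lay far apart, with 10.4-fold to 16.1-fold differences within litters, and the log2 difference was 3.77 ± 0.19 (adjusted p = 0.00413). A second Fgfr3 probe set (1425796_a_at) did not give this picture. It measured 132.3, 9.7 and 103.1 in ICAM1-positive cells, against 29.3, 10.7 and 42.7 in ICAM1-negative cells. Here litters 1 and 3 were higher in the positive sort and litter 2 was level and near the bottom of the scale, so the groups overlapped and the difference of 1.10 ± 0.53 did not pass (adjusted p = 0.192).

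Fgfr1 encodes the receptor that is most widely used in mesenchyme and nerve tissue. On 1424050_s_at it measured 740, 808.6 and 788.6 in ICAM1-positive cells, against 62.5, 62.3 and 40.6 in ICAM1-negative cells. The ICAM1-positive arrays agreed closely, while all 3 ICAM1-negative arrays lay below the median of their array. The difference was 3.85 ± 0.21 (adjusted p = 0.00415), at least 8.07-fold. The other 2 Fgfr1 probe sets rose as well, by 3.61 ± 0.27 (1425911_a_at, at least 2.59-fold) and 3.14 ± 0.35 (1436551_at, at least 3.23-fold). The last of these did not pass without litter 3 (adjusted p = 0.0567).

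Since the rise of Fgfr1 is a lower bound, it has no place in an order with those of Fgfr2 and Fgfr3. A second Fgfr2 probe set (1420847_a_at) rose by 3.56 ± 0.18, at least 3.95-fold. Probe set 1443211_at measured 94.2, 100.5 and 89.3 in ICAM1-positive cells against 49.2, 44.8 and 36.3 in ICAM1-negative cells. Its groups did not overlap, but 5 of the 6 values lay below the array median. It passed with 1.13 ± 0.15 (adjusted p = 0.0139), but not once values under the median of their array were set to that median (0.06, adjusted p = 0.98), nor without litter 1, 2 or 3 (adjusted p = 0.0669 to 0.0765).

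Fgf2, the only ligand in this set, is a growth factor held in the extracellular matrix. Its single probe set (1449826_a_at) measured 1.4, 7.9 and 2.2 in ICAM1-positive cells, against 26.3, 17.6 and 10.8 in ICAM1-negative cells. All 6 values lay below the median of their array, and the probe set did not reach an intensity of 16 on 3 arrays, so it was not tested and no fold is given. With no filter on low intensities its difference of -2.56 did not pass (adjusted p = 0.0834).

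**Figure D1:**
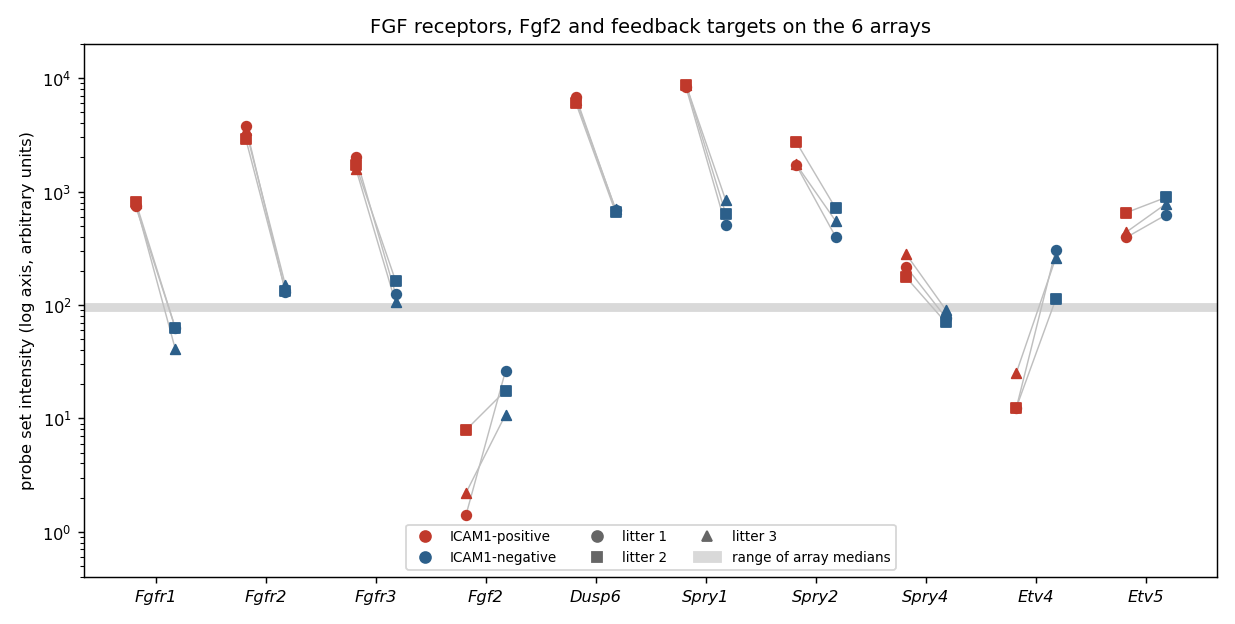
Intensity on each array (log axis, arbitrary units) of the probe set with the highest mean for each gene, ICAM1-positive left of ICAM1-negative, with grey lines joining the sorts of 1 litter and a grey band for the range of array medians (87.9 to 102.8). The 3 receptors, Dusp6 and the Sprouty genes lie higher in all 3 ICAM1-positive arrays, Etv4 lies lower in them, Etv5 differs less, and all Fgf2 values lie below the band.

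The feedback inhibitors rose with the receptors. Dusp6 encodes the cytoplasmic phosphatase that inactivates ERK. It measured 6762.3, 5993.7 and 6403.4 in ICAM1-positive cells, against 688.5, 654.7 and 699.1 in ICAM1-negative cells. These values varied little between litters, with within-litter differences between 9.16-fold and 9.82-fold, and the log2 difference was 3.23 ± 0.12 (adjusted p = 0.00406).

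Spry1 encodes a Sprouty protein, an inhibitor of receptor tyrosine kinase signalling upstream of ERK. It measured 8278.6, 8777.2 and 8680.4 in ICAM1-positive cells, against 503.2, 636.8 and 839.5 in ICAM1-negative cells. The ICAM1-positive arrays were within a narrow band and the ICAM1-negative arrays spread more. The difference was 3.73 ± 0.19 (adjusted p = 0.00413).

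Spry2, a second Sprouty gene, measured 1719.3, 2743 and 1739.9 in ICAM1-positive cells, against 397.2, 709 and 548.6 in ICAM1-negative cells on 1436584_at. Litter 2 was the highest litter in both sorts. The groups did not overlap, and the difference was 1.91 ± 0.16 (adjusted p = 0.00642). Its dimmer probe set (1421656_at) measured 141.2, 99.1 and 85.1 in ICAM1-positive cells, against 93.2, 78.3 and 68 in ICAM1-negative cells. Those groups overlapped and the difference of 0.42 ± 0.14 did not pass (adjusted p = 0.0987).

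Spry4 encodes another Sprouty protein and was read by 4 probe sets, all higher in ICAM1-positive cells. The brightest, 1440867_at, measured 216.5, 174.9 and 279.8 in ICAM1-positive cells, against 77.4, 70.1 and 90.7 in ICAM1-negative cells. The groups were apart on it, and its difference was 1.48 ± 0.14 (adjusted p = 0.00794), at least 2.28-fold, with the call lost without litter 1 (adjusted p = 0.0606) or litter 3 (0.051). Probe sets 1422021_at and 1445669_at rose by 3.03 ± 0.24 and 3.07 ± 0.17, at least 1.51-fold and 2.29-fold. On 1445669_at the ICAM1-positive array of litter 2 stood apart at 507.6, beside 149.4 and 142.1 in litters 1 and 3, and the ICAM1-negative array of litter 2 was also the highest of its sort at 55.4, beside 21.8 and 15. The fourth, 1422020_at, was below the array median on all 6 arrays, at 24.1, 20.1 and 22.5 in ICAM1-positive and 3.7, 7.7 and 1.8 in ICAM1-negative cells. It entered the test through the ICAM1-positive arrays alone. Its adjusted p of 0.0335 was lost without litter 1 (0.136) or litter 3 (0.0945), with an intensity trend in the fit (0.107), and with values under the array median set to it (0.996).

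Among the inhibitors with both sorts above the array median, the log2 difference was largest for Spry1, followed by Dusp6 and Spry2, in each of the 3 litters. In litter 3 Spry1 and Dusp6 were closest, at 3.37 and 3.20. These differences between genes were not tested. Spry4 has no place in this order, because its ICAM1-negative values lay below the array median on all 4 probe sets and its rises are lower bounds.

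The promoters of these feedback genes are shown because Spry1, Dusp6 and Spry2 moved together, with that of Etv5, an ERK-induced gene that went the other way. The fall of Etv5 was small, and its call was lost without litter 1, 2 or 3. Each promoter is the stretch of 300 bases from 250 before to 50 after a RefSeq transcription start (GRCm38.p6), written 5′ to 3′ along the gene. Capitals mark matches on either strand to CCGGAA, a core motif of ETS factors, to TGACTCA, the motif of AP-1, or to GGGCGG, the GC box. They lie at chr3:37639697-37639996 (plus strand) for Spry1, chr10:99262981-99263280 (plus) for Dusp6, chr14:105896770-105897069 (minus) for Spry2 and chr16:22439521-22439820 (minus) for Etv5.
Spry1: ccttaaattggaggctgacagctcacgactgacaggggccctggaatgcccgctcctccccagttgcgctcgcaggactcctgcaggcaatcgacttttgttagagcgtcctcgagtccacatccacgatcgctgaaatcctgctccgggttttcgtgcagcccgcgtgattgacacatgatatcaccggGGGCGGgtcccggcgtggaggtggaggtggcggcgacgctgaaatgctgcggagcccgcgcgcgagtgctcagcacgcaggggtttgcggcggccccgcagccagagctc
Dusp6: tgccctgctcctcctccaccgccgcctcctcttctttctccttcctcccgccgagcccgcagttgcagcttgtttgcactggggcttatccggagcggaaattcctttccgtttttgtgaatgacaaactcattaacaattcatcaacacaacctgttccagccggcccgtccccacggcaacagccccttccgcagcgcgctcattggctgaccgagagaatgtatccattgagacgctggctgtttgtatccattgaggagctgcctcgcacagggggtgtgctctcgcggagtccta
Spry2: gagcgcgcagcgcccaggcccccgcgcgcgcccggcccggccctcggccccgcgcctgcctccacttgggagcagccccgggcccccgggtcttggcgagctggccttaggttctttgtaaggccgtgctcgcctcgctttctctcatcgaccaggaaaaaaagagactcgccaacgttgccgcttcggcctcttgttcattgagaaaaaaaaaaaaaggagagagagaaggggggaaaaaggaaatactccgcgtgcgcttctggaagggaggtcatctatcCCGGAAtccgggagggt
Etv5: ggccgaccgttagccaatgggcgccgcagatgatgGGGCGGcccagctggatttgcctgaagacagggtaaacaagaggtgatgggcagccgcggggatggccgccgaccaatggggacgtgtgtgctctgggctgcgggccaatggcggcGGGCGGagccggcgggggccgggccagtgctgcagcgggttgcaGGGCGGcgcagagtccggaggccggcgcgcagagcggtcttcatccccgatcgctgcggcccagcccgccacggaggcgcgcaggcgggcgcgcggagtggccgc

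The ETS motif was found 1 time, in the Spry2 promoter, and 14.9% of 32851 mouse promoters of this length hold it. The GC box was found 1 time in Spry1 and 3 times in this Etv5 promoter, and 35.7% of promoters hold it. The AP-1 motif, held by 5.2% of promoters, was found in none of these 4 windows, and the Dusp6 window held none of the 3 motifs. RefSeq promoters were searched for 7 of the 10 genes, with 9 starts in all. No promoter was at hand for Fgfr1 and Etv4. Spry4 was not searched, because promoters of its chromosome were left out of the search for these genes. The percentages over all mouse promoters include that chromosome. Among the receptors, both Fgfr3 starts held GC boxes (4 and 2), and the Fgfr2 start held none of the 3 motifs. The Fgf2 start held 1 GC box and neither of the other motifs. A further Etv5 start, whose sequence is not printed here, also held none of the 3 motifs.

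Etv4 and Etv5, the ETS genes of this set, did not rise with the feedback inhibitors. Etv4 encodes a PEA3-family ETS factor. It measured 12.3, 12.4 and 25.1 in ICAM1-positive cells, against 307.4, 113 and 261.7 in ICAM1-negative cells on 1423232_at. All ICAM1-positive values lay below the array median and all ICAM1-negative values above it, with litter 2 the lowest ICAM1-negative array. Etv4 fell by 3.74 ± 0.37 on the log2 scale (adjusted p = 0.00841), at least 2.16-fold, and missed the threshold without litter 3 (adjusted p = 0.0501). A second Etv4 probe set (1443381_at) measured 7.3, 37.1 and 51.8 in ICAM1-positive cells, against 42, 58.8 and 10.7 in ICAM1-negative cells. It was lower in litters 1 and 2 and higher in litter 3, stayed below the array median throughout, and did not pass (-0.30 ± 1.07, adjusted p = 0.844). With the 2 probe sets averaged, Etv4 did not pass (-2.02, adjusted p = 0.0878).

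Etv5, the closest relative of Etv4 in this set, measured 394.2, 652 and 439 in ICAM1-positive cells, against 622, 886.6 and 778.9 in ICAM1-negative cells on 1428142_at. The groups overlapped across litters, because litter 2 was the highest in both sorts, while within each litter the ICAM1-positive array was the lower one. The difference of -0.64 ± 0.15 passed narrowly (adjusted p = 0.0461). Without pairing by litter it did not pass (adjusted p = 0.116), nor without litter 1 (0.181), litter 2 (0.106) or litter 3 (0.16), nor with no filter on low intensities (0.0685) or with each array centred on its median (0.0845). The other 2 Etv5 probe sets were lower in 3 of 3 litters but did not pass, at -0.53 ± 0.16 (1420998_at, adjusted p = 0.082) and -0.49 ± 0.20 (1450082_s_at, adjusted p = 0.146). The fall of Etv5 is thus small and rests on the pairing and on all 3 litters.

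**Figure D2:**
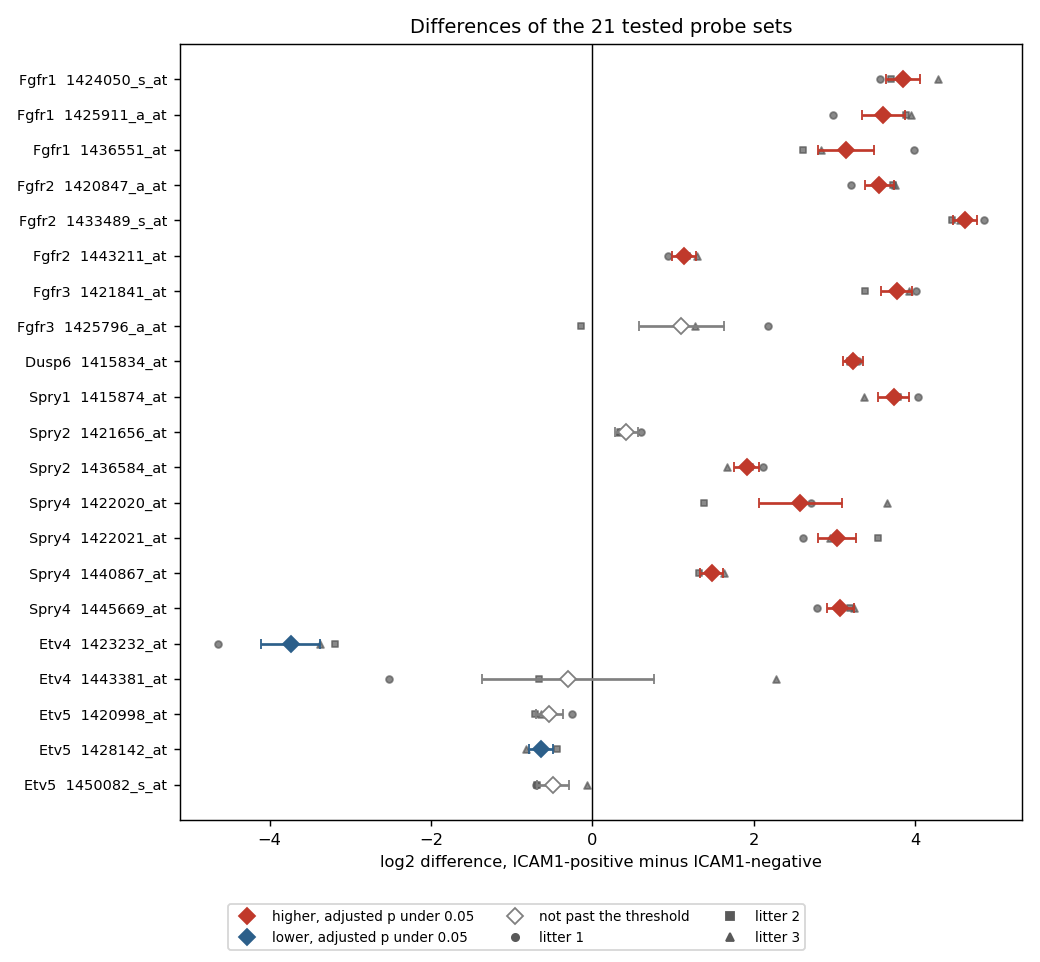
Log2 difference, ICAM1-positive minus ICAM1-negative, of the 21 tested probe sets, with diamonds and bars for the fitted value and its standard error and small symbols for the 3 litters. Filled diamonds passed an adjusted p of 0.05 (14 higher, 2 lower) and open ones did not (5).

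Of the 22 probe sets, 21 were bright enough to be tested, 14 rose and 2 fell. Over all 38694 tested probe sets, 17.8% rose and 19.3% fell. Counted as 1 probe set per gene, 7 of the 9 tested genes rose and 2 fell. Their median was 3.23 on the log2 scale, where 21.3% of 16399 genes rose, 22.2% fell and the median was -0.06. Every ICAM1-positive array was above every ICAM1-negative array for 14 of the 21 probe sets and below for 2, as was the case for 23.6% and 26.5% of all tested probe sets. On 7 of the 21, fewer than 3 arrays of at least one sort exceeded an intensity of 16, the level used to keep a probe set. Without litter 3 the count fell to 10 higher and 0 lower.

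Other genes of the pathway were taken from lists drawn up by role. Each was read by its brightest kept probe set, and the other probe sets of a gene did not always pass. Of 113 listed genes, 100 were tested, 43 rose and 16 fell, with a median of 0.56. Over all 16399 genes 21.3% rose and 22.2% fell, and the counts of each list below are to be read beside these shares. Leaving out a litter lowered the total of 59 to between 35 and 37 genes.

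Among the other secreted FGF ligands 1 of 15 tested genes rose, 3 fell and 11 did not pass (median -0.58), beside 21.3% higher and 22.2% lower over all genes. Fgf1, a ligand that can bind every FGF receptor, averaged 3587 ± 6.06 in ICAM1-positive cells and 89.7 ± 14.2 in ICAM1-negative cells (SD, n = 3 each, limma log2 difference 5.33 ± 0.16, adjusted p = 0.00406). Fgf9, a ligand produced by many epithelia and by neurons, averaged 163.2 ± 8.76 in ICAM1-positive and 746.5 ± 136 in ICAM1-negative cells and fell by 2.18 ± 0.17. Fgf15, a ligand known from the gut and the embryonic brain, fell by at least 1.36-fold (adjusted p = 0.0131), but not without litter 1 (0.0655) or litter 3 (0.0521). The list held 1 lower gene without litter 1 and 2 without litter 3, and without litter 2 it held 2 higher ones. Fgf21, a hormone-like FGF, was below the array median in both sorts, at 23.5 ± 12.1 in ICAM1-positive and 57.3 ± 9.86 in ICAM1-negative cells. Its adjusted p of 0.0476 was lost without litter 1, 2 or 3 (0.052 to 0.173) and with values under the array median set to it (0.996). The ligands Fgf7 and Fgf10, which act on the epithelial form of the Fgfr2 protein, lay below the array median on all 6 arrays, with means of 35.2 and 29.4 in ICAM1-positive and 48.2 and 43 in ICAM1-negative cells. Those 2 were singled out after their values were seen.

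The FGF homologous factors stay inside the cell and bind sodium channels. Of 4, Fgf13 rose, with a mean of 734.7 ± 93.5 in ICAM1-positive and 103.3 ± 30.2 in ICAM1-negative cells (2.87 ± 0.20, adjusted p = 0.00517). Only 1 of the 2 Fgf13 probe sets passed. With probe sets averaged, Fgf13 lost its call and 0 of the 4 genes rose. Fgf12 fell, with a mean of 529 ± 129 in ICAM1-positive and 4477 ± 387 in ICAM1-negative cells (-3.11 ± 0.20, adjusted p = 0.00463). The mature neuron markers fell in the same arrays, 8 of 8.

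Of 19 tested receptor-like and coreceptor genes 9 rose and 4 fell (median 0.78). Fgfr4, the remaining FGF receptor kinase gene, averaged 433.8 ± 44.9 in ICAM1-positive and 34.4 ± 18.1 in ICAM1-negative cells, at least 4.48-fold higher (adjusted p = 0.012), but not without litter 2 (0.0585) or litter 3 (0.0541). Of the 5 Fgfr4 probe sets, 2 passed. With Fgfr4, each of the 4 FGF receptor kinase genes was above its ICAM1-negative partner in all litters on the brightest probe set. Fgfrl1, which encodes a receptor without a kinase domain, averaged 1324 ± 48.6 in ICAM1-positive and 887.8 ± 117 in ICAM1-negative cells and did not pass (0.58 ± 0.15, adjusted p = 0.0616), although it did without the pairing (0.0471). Sdc1, a heparan sulfate coreceptor of epithelia, rose by 6.38 ± 0.18, and Fgfbp1, a carrier that frees FGFs from the matrix, rose by at least 29-fold. Ncam1, a neural adhesion molecule that can bind FGF receptors, fell by 3.57 ± 0.31, and Flrt1, a membrane protein that binds them, by 3.40 ± 0.23. The neural heparan sulfate carrier Sdc3 fell by 2.18 ± 0.15, but only 1 of its 3 probe sets passed.

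In the relay of the FGF signal, a list that held genes of the PI3 kinase branch beside those leading to ERK, 6 of 19 tested genes rose and 2 fell. The median was 0.19, beside 21.3% higher and 22.2% lower over all genes. Leaving out litter 1 left 2 higher and 0 lower relay genes, and leaving out litter 2 or litter 3 left 3 higher and 0 lower. The docking protein gene Gab1 rose by 2.98 ± 0.12 and Pik3r1, a regulatory subunit of PI3 kinase, by 3.47 ± 0.18. The adaptor gene Shc1 rose by 1.66 ± 0.16, but not without litter 1 (adjusted p = 0.0562). The kinase gene Braf fell on its brightest probe set, with a mean of 1450 in ICAM1-positive and 2896 in ICAM1-negative cells (adjusted p = 0.0135), but its probe sets that passed did not all have that direction. The adaptor gene Shb fell by 0.62 ± 0.14. Both Braf and Shb lost their calls without litter 1, 2 or 3 (adjusted p = 0.0666 to 0.186), and Shb also without the pairing (0.155).

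Other inhibitors of ERK signalling moved in both directions, with 11 of 18 tested genes higher and 3 lower (median 1.18). Spred1, a Sprouty-related inhibitor, averaged 3922 ± 282 in ICAM1-positive and 514.8 ± 61.4 in ICAM1-negative cells (2.93 ± 0.15, adjusted p = 0.00413). Dusp7, a phosphatase close to Dusp6, was at least 2.84-fold higher but not without litter 2 (adjusted p = 0.0755), and Lrig3, a membrane protein of a family that restrains receptor kinases, was at least 5.98-fold higher. Dusp4, a nuclear ERK phosphatase gene, averaged 706.4 ± 66.2 in ICAM1-positive and 3083 ± 285 in ICAM1-negative cells and fell by 2.13 ± 0.17. Dusp14, another dual-specificity phosphatase gene, fell by 2.60 ± 0.13. Spred3, a Sprouty-related gene, entered the test through the ICAM1-negative arrays alone. It passed downward with both sorts below the array median, at 3.4 ± 0.53 in ICAM1-positive and 35.6 ± 21.4 in ICAM1-negative cells, and did not pass without litter 2 (adjusted p = 0.0537) or with values under the array median set to it (0.996). The list held 5 higher and 2 lower genes without litter 2, and 6 higher and 3 lower without litter 1 or litter 3.

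Among other genes that respond to ERK or belong to the ETS family, 13 of 20 tested rose and 2 fell (median 1.67). Ets1, an ETS factor gene outside the PEA3 family, averaged 3398 ± 316 in ICAM1-positive and 123.6 ± 42.2 in ICAM1-negative cells (4.83 ± 0.24, adjusted p = 0.00408). Ier3, an early response gene, rose by 4.54 ± 0.13. Epha2, an ephrin receptor gene, was at least 11.5-fold higher, but not without litter 1 (adjusted p = 0.0549) or litter 3 (0.0704). The cyclin gene Ccnd1 fell by 0.88 ± 0.15 and the survival gene Bcl2l1 by 0.65 ± 0.12, and both lost their calls without litter 1, 2 or 3 (adjusted p = 0.0739 to 0.138), as Bcl2l1 did without the pairing (0.0565). Each litter left out lowered the list to 8 or 9 higher and 0 lower genes.

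The exons that give Fgfr2 its epithelial or mesenchymal form are chosen by splicing regulators. Of 5, the polypyrimidine tract protein gene Ptbp1 (1.25 ± 0.12) and the epithelial splicing gene Esrp2 (0.59 ± 0.14) rose and Rbfox2 fell (-1.37 ± 0.12). Esrp1, the other epithelial splicing gene, averaged 3163 ± 381 in ICAM1-positive and 4208 ± 177 in ICAM1-negative cells and did not pass (adjusted p = 0.0932), and was singled out after its value was seen. Ptbp1 and Esrp2 lost their calls without litter 1, 2 or 3 (adjusted p = 0.0548 to 0.203), Rbfox2 without litter 1 (0.0586) or litter 2 (0.052), and Ptbp1 without the pairing (0.0813). The list thus held 0 higher genes with any litter left out. Which form of Fgfr2 the probe sets read was not analysed here.

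**Figure D3:**
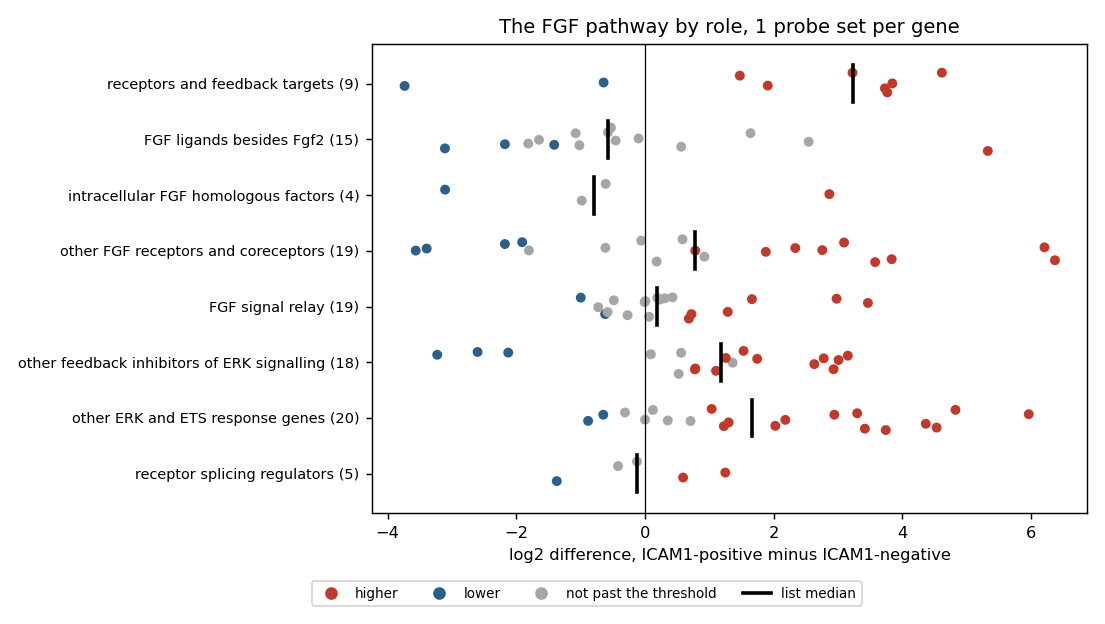
Log2 difference, ICAM1-positive minus ICAM1-negative, of every tested gene of the pathway (points, number of genes in brackets), by role, with a black bar for the median of each list. The receptors and feedback targets have a median of 3.23, the other ERK response genes 1.67 and the signal relay 0.19.

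Markers of other cell types that the sorts could hold are set beside these results. The 6 immature neuron markers fell, with sums of 4772 to 6798 on ICAM1-positive and 39070 to 52420 on ICAM1-negative arrays, and of 7 globose basal cell and precursor markers 1 rose and 5 fell. Sustentacular markers rose for 3 of 8, with a median difference of -0.28 and sums of 33660 to 46640 on ICAM1-positive and 20070 to 27730 on ICAM1-negative arrays. Their defining gene Cyp2g1 averaged 9501 in ICAM1-positive and 11040 in ICAM1-negative cells and did not pass. Bowman gland and duct markers rose for 4 of 7, among them Sox9 (3.29), and 1 fell (sums 36230 to 42180 on ICAM1-positive and 13480 to 21100 on ICAM1-negative arrays). All 8 endothelial markers lay below the array median on every ICAM1-positive array, with sums of 314.5 to 378.6 in ICAM1-positive and 336.4 to 383.9 in ICAM1-negative cells, and 0 of 7 tested rose or fell. No marker was at 0 on any array. Fibroblast markers rose for 1 of 8, ensheathing glia markers for 1 of 6 and lymphocyte markers for 1 of 4 with 1 lower. Whether glands, sustentacular cells or macrophages carry the FGF genes in the ICAM1-positive sort was not tested.

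Likeness to single genes was measured as the root mean square distance between log2 intensities, each centred on its own mean, over the 6 arrays. The genes nearest to Fgfr2 were Ctss, a lysosomal protease gene of macrophages, and Net1 (distance 0.09 each), and the nearest to both Fgfr1 and Fgfr3 was the growth hormone receptor gene Ghr (0.10 each). Slc39a10 and Sspn were nearest to Dusp6 (0.06 each), Hlf and Sgms1 to Spry1 (0.09 and 0.10), Cflar and Enho to Spry2 (0.12 and 0.14), and Nlrp3 and Fzd8 to Spry4 (0.04 and 0.07). The next nearest were Dennd2c for Fgfr1 (0.13) and Rab34 for Fgfr3 (0.12). Etv4 was nearest to Omp, the olfactory marker protein gene of mature neurons, and to Trim36 (0.14 and 0.22), and Etv5 to Slc25a39 and Ndufb6 (0.04 and 0.07). These distances mostly follow the size of the difference between the sorts and rest on 6 arrays.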

How the data were processed

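RNA from the sorted cells was amplified in 2 rounds and hybridised to Affymetrix mouse 430 2.0 arrays, per the labels' protocols. The authors deposited 1 linear intensity per probe set and array. GCRMA is named in the submitters' processing notes, but the deposited intensities share a mean of 500 after trimming 2% from each end and have unequal quantiles, as MAS5-type signals do. How background was corrected is not given in the sources used here, and depth has no meaning for arrays, whose small number limits the precision.

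Groups followed the sample titles, as did the source names. The free-text descriptions name the opposite sort, and Krt5 and Krt14 followed the titles. Gene symbols came from the platform table (34945 probe sets with 1 symbol, 932 with several, 9160 with none). The 64 control probe sets were left out. Probe sets above 16 (log2 of 4) on at least 3 of 6 arrays were kept, 38694 in all, and a gene was read by its kept probe set with the highest mean. Log2 intensities were fitted with limma 3.58.1 in R 4.3.3 (lmFit, eBayes) with litter as a block, and p-values were adjusted by Benjamini-Hochberg with a threshold of 0.05. Tested on simulated data, the fit recovered the sizes of the changes but not their calls. Far fewer probe sets changed in the simulation than passed here, so it cannot show how reliable the calls here are. Why the simulated calls were missed was not tested. Both sorts of a replicate number come from the same litter, per the series text. Deviations from the sort means correlated at 0.127, 0.199 and 0.0812 within litters and at -0.15 to 0.033 between them. Because each sort was centred on its own mean, higher values within litters bring lower ones between them, so this contrast is partly built in. P-values rest on the spread of the within-litter differences over 3 litters, with the variance of each probe set drawn towards that of all tested probe sets.

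All 10 genes are described with every probe set. From each pathway list the text names up to 3 genes per direction with the largest difference among those past the threshold in the same direction in all litters, plus Fgfr4 and Fgfrl1, and also leading genes of marker lists and the 2 nearest genes of each member. The genes and lists were chosen with earlier results of these data known. Alternatives were no block, quantile normalization, median centring, a pseudocount of 16, low values raised to the array median, other filters, an intensity trend, averaged probe sets and each litter left out.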

Additional observations from a re-analysis of the deposited data

How the results depend on the processing

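The direction of each of the 9 tested genes was the same under every alternative run. Fgfr1, Fgfr2, Fgfr3, Dusp6, Spry1 and Spry2 passed the threshold under all of them on their brightest probe set. With no replicate block, 13512 probe sets passed against 14375 with it, and among the 9 genes Etv5 (-0.64) lost its call, as it did with no filter and with arrays centred on their median. Etv4 lost its call with probe sets averaged (-2.02). Leaving out a litter gave 4867 to 6123 probe sets, 10 to 14 of the 21 probe sets tested here and 35 to 37 pathway genes, with fewer arrays in each fit. It gave log2 differences of -4.01 to -3.29 for Etv4, -0.74 to -0.55 for Etv5 and 1.40 to 1.56 for Spry4, some past the threshold and some not. Reversed signs were seen on 2 dim probe sets, both without passing. Etv4 1443381_at ran from -1.59 to 0.81 with a litter left out, and Spry4 1422020_at was at -0.001 once values under the array median were set to it, where all its values equal that floor. Signal over background limits the size of the differences of Fgfr1, Spry4 and Etv4, for which 1 sort had all 3 values under the array median, and of Fgf2, which was dim in both sorts.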
